A study of Mus musculus with 6 samples.

Results

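Of the 25001 loci in the deposited expression tables, of which 22601 carry a gene symbol, 8 encode the CC chemokine ligands described here: Ccl2, Ccl5, Ccl7, Ccl8, Ccl9, Ccl20, Ccl25 and Ccl28. They were chosen by symbol in all 6 tables, and each symbol had 1 row, so that no row had to be picked. The RNA came from 427 cells, a mouse thymoma line that makes the membrane serine protease epithin/PRSS14. The 2 libraries of 427 cells carried the empty pSUPER vector, and the other 4 came from SPPL2b knockdown cells (SP2bKD), a derivative of 427 cells. The methods describe the derivative as a single-cell clone with a stable shRNA in pSUPER, whereas the labels name an siRNA. Cells of each kind were kept without serum for 2 h and then given DMSO, the solvent, or 1 µM of PMA for 2 h. PMA is a phorbol ester that activates protein kinase C and, in these cells, sheds the ectodomain of epithin/PRSS14. The remaining pair of SP2bKD cultures were transfected with a GFP vector alone (GFP) or with GFP and a FLAG-tagged intracellular domain of epithin/PRSS14 (GFP plus EICD), and GFP-positive cells were sorted the day after transfection. Because a clone, its shRNA and its time in culture differ together between the lines, their effects cannot be told apart, and the same holds for transfection, sorting and serum handling between GFP cells and untransfected cells.

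Each condition had 1 library. No difference could be set against the spread between replicates, so no p-value is given, and the intervals below are exact (Clopper-Pearson) 95% binomial intervals of the log2 ratio that cover counting error only. They rest on fragment numbers estimated from FPKM (fragments per kilobase of transcript, scaled to the fragments of the library), the longest annotated transcript and an estimated depth of 26100000 to 30500000 fragments a library. The 10 loci of largest FPKM held 85.6% to 94.2% of the FPKM sum, and between 10555 and 10873 loci reached an FPKM of 1. Sppl2b, the target of the knockdown, was not lower in the libraries labelled SP2bKD: its FPKM was 9.90 with DMSO and 6.86 with PMA in 427 cells and 13.4 and 9.37 in the libraries labelled SP2bKD, so that every line comparison below is between libraries as labelled. St14, the gene of epithin/PRSS14, had an FPKM of 69.6 with GFP and 614.5 with GFP plus EICD. The EICD construct holds part of the coding sequence of St14, so its reads cannot be told from those of the cells' own gene. Of 7 epithelial markers 6 reached an FPKM of 1, with Krt5 between 3851 and 10705 and Krt14 between 1355 and 3820. Some of them differed by more than 2-fold between libraries: Krt5 and Krt14 were higher in GFP than in untransfected cells (log2 ratios 1.33 and 1.10), Krt18 was higher with PMA in 427 cells (1.26), and Krt8 was higher in the libraries labelled SP2bKD than in 427 cells (1.96 with DMSO and 1.56 with PMA), lower with GFP (-1.12) and lower with EICD (-1.02). Of 5 thymic epithelial markers 2 reached 1, Foxn1 at 6.37 to 15.2 and Prss16 at 1.88 to 3.03, while Psmb11 was at most 0.0270 and Aire and Pax1 were listed at 0 in all libraries. Of 8 T cell markers none reached 1 and 4, Cd3d, Cd3e, Cd4 and Thy1, were listed at 0 in all libraries, with a summed FPKM of 0.0304 to 0.340. Of 6 macrophage markers found, 3 reached 1 in every library, Csf1r at 2.37 to 7.35, Cd14 at 2.56 to 5.78 and Cd68 at 1.25 to 2.58, with a summed FPKM of 10.6 to 12.2 in the untransfected libraries and 7.04 and 8.10 in the GFP and GFP plus EICD libraries, and Adgre1, a defining macrophage marker, was listed at 0 throughout. The summed FPKM of 6 fibroblast markers was 0.867 and 0.694 in the 427 libraries, 2.04 and 2.17 in the DMSO and PMA libraries labelled SP2bKD, and 0.439 and 0.667 in the GFP and GFP plus EICD libraries. Its differences between the lines came mainly from Pdgfrb, at 0.445 and 0.488 in the 427 libraries, 1.52 and 1.99 in the DMSO and PMA libraries labelled SP2bKD and 0.0380 and 0.0735 in the transfected ones, and the other 5 stayed below 0.3 in every library. The part of these marker levels in the ligand results was not tested.

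CC chemokines are small secreted proteins that draw leukocytes by binding receptors coupled to G proteins. The inflammatory members are made on demand by epithelial, stromal and immune cells, with transcription driven by factors of the NF-kappaB and AP-1 families and mRNAs that are often short-lived. The homeostatic members are made constantly and guide cell traffic through tissues, and in the thymus the epithelium attracts T cell progenitors in this way. Ccl2, Ccl7 and Ccl8 belong to the monocyte chemoattractant group, Ccl5 and Ccl9 attract cells that carry Ccr1, Ccl20 is the ligand of Ccr6, Ccl25 that of Ccr9 and Ccl28 that of Ccr10.

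In 427 cells with DMSO the ligand mRNA was mainly Ccl2 and Ccl25. The summed FPKM of the 8 genes was 28.4, of which Ccl2 made up 47.6% and Ccl25 43.8%. With PMA the sum was 146.1 and Ccl2 took 62.4%, Ccl20 20.4% and Ccl25 9.79%. In the library labelled SP2bKD with DMSO the sum was 14.2, and Ccl25 made up 76.2% and Ccl2 3.49%. With PMA the sum was 46.2 there, and the highest member was Ccl20 with 36.8%, before Ccl5 with 23.6% and Ccl25 with 22.8%. In GFP cells the sum was 14.8, with 47.6% from Ccl25 and 28.7% from Ccl2, and in GFP plus EICD cells it was 44.2, with 57.1% from Ccl20. The PMA library of SP2bKD cells and the GFP plus EICD library thus held similar summed FPKM, but Ccl5 made up 23.6% of the former and 1.17% of the latter. Since these are bulk samples, fewer cells that make a ligand and less of its mRNA per cell cannot be told apart.

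**Figure D1:**
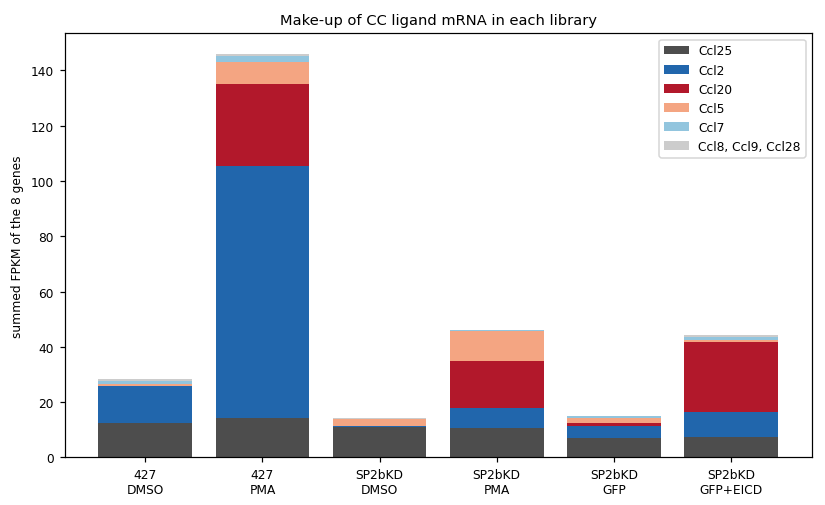
Summed FPKM of the 8 CC ligand genes in each of the 6 libraries (1 library per condition, no error bars), stacked by gene. Ccl2 (blue) fills 62.4% of the 427 PMA bar, Ccl20 (red) 57.1% of the GFP plus EICD bar, and Ccl25 (dark grey) 76.2% of the bar of the DMSO library labelled SP2bKD.

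**Figure D2:**
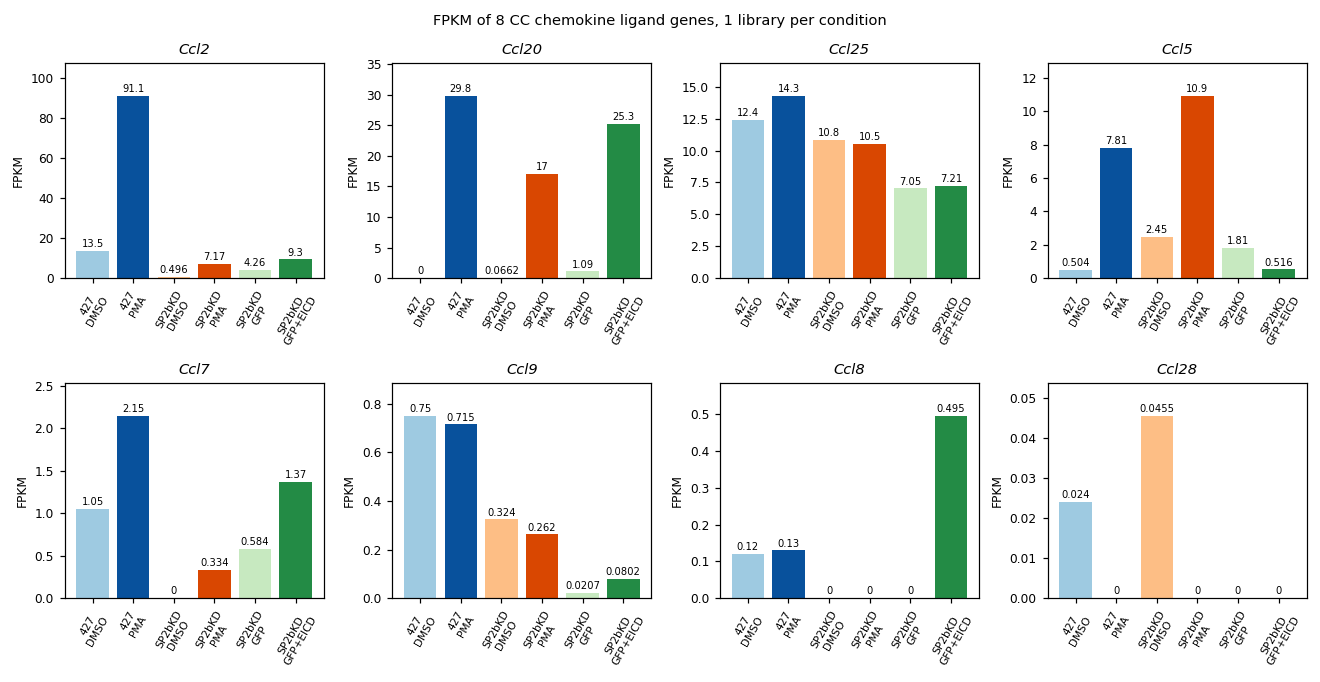
FPKM of each CC ligand gene in each library, 1 bar per library and a separate linear axis from 0 for each gene. The bars of Ccl25 span 7.05 to 14.3, whereas those of Ccl20 span 0 to 29.8 and those of Ccl2 0.496 to 91.1.

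To compare conditions, the log2 ratio of FPKM with 0.01 added to both libraries was taken over all loci with a symbol, and a locus was called when it differed by more than 2-fold and reached an FPKM of 1 in either library. Folds given beside log2 ratios are ratios of the FPKM themselves, with nothing added, so that at low FPKM a fold is further from 1 than its log2 ratio implies. PMA in 427 cells asked which genes follow the shedding stimulus. Of the 5 ligands that reached the minimum there, 4 were called higher (Ccl2, Ccl5, Ccl7 and Ccl20) and none lower, where 3.91% of 10643 tested loci were called higher and 4.67% lower. The median log2 ratio was 2.75 over the 5 and 1.89 over the 4 with values above 0 in both libraries, beside -0.12 over all tested loci. PMA in the libraries labelled SP2bKD gave 3 of 4 higher (Ccl2, Ccl5 and Ccl20) and none lower, against 3.51% and 5.69% of 10624 loci, with a median of 2.99 beside -0.15. With DMSO, the library labelled SP2bKD had 2 of 4 ligands lower than 427 cells (Ccl2 and Ccl7) and 1 higher (Ccl5), against 2.76% lower and 3.11% higher of 10706 loci. Here the median was -2.47 over the 4 and -0.20 over the 3 with values above 0 in both libraries, beside 0.05 over all tested loci. With PMA, 2 of 5 were lower (Ccl2 and Ccl7) and none higher, against 2.75% and 2.19% of 10518 loci, with a median of -0.81 beside 0.02. GFP cells had 2 of 4 ligands higher than untransfected cells with DMSO (Ccl2 and Ccl20) and none lower, against 3.56% and 4.14% of 10687 loci, with a median of 1.32 beside -0.08. GFP plus EICD cells, set against GFP cells to ask what the released intracellular domain does to transcription, had 3 of 5 higher (Ccl2, Ccl7 and Ccl20) and 1 lower (Ccl5), against 3.55% and 0.524% of 10687 loci, with a median of 1.12 beside 0.07. These comparisons share libraries, so their counts are not independent of each other, and Ccl8, Ccl9 and Ccl28 stayed under the minimum in all 6. As 1 library at the minimum was enough, many called ligands entered a count only through the library where they were higher. With PMA these were Ccl5 and Ccl20 in 427 cells and Ccl2 and Ccl20 in the libraries labelled SP2bKD. Between the lines they were Ccl2, Ccl5 and Ccl7 with DMSO and Ccl7 with PMA. With GFP they were Ccl2 and Ccl20, and with EICD Ccl5 and Ccl7. The counts are therefore descriptions, not tests.

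**Figure D3:**
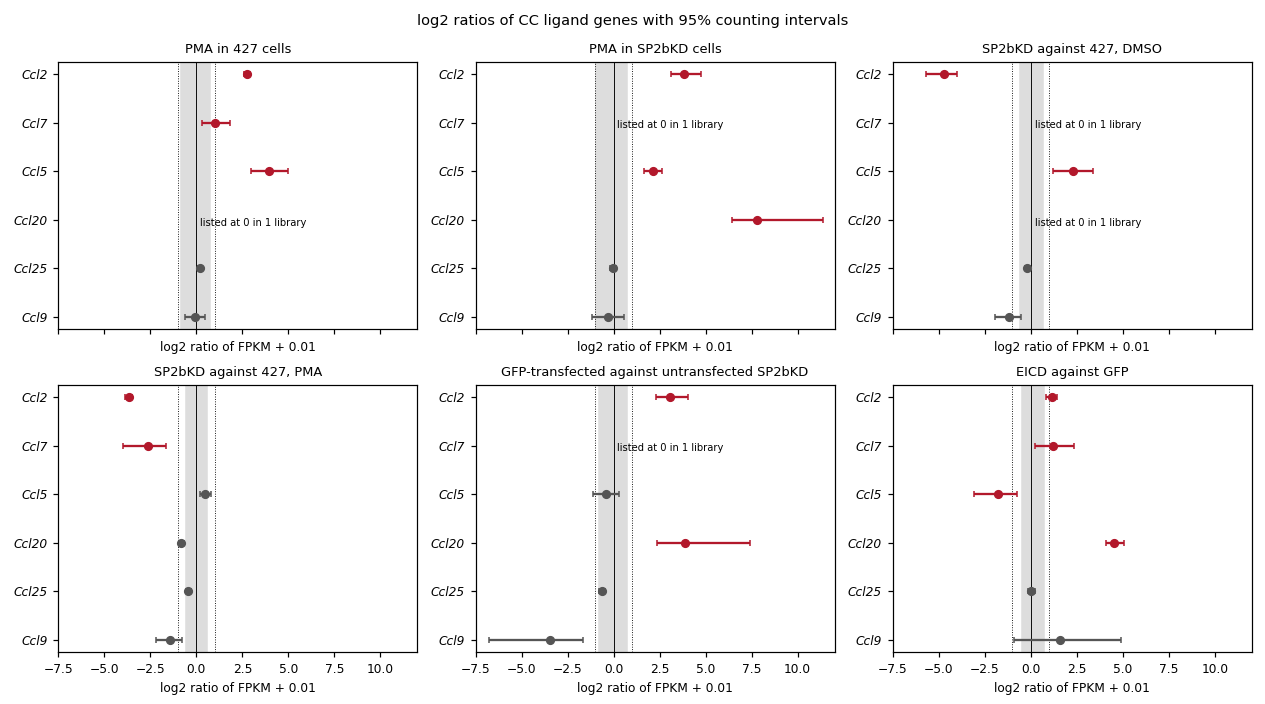
Log2 ratios of FPKM + 0.01 (points) with 95% counting intervals (lines) for 6 ligands in the 6 comparisons, red where the locus passed the rule of 2-fold and minimum FPKM. Grey bands span the 5th to 95th percentile of loci at FPKM 1 or more in both libraries, dotted lines mark 2-fold, and genes listed at 0 in 1 library have no point. Ccl25 lies within 2-fold in every panel, while Ccl2 lies at 2.75 and 3.83 with PMA and at -4.74 between the lines with DMSO.

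To show what lies before the start sites, windows of 250 bases upstream of the annotated starts were read from RefSeq promoters in GRCm38.p6, which held entries for 5 of the 8 genes (Ccl8, Ccl9, Ccl20, Ccl25 with 2 starts, and Ccl28). The sequences of Ccl20, which had high log2 ratios with PMA in the libraries labelled SP2bKD and with EICD, of Ccl25, which was within 2-fold in all 6 comparisons, and of Ccl9, whose PMA log2 ratios were -0.07 and -0.30, are set beside each other. They are written 5′ to 3′ on the gene's strand, with the base before the start site last. Capitals mark matches on either strand to a loose form of the kappaB site (GGG and CC with any 5 bases between them), to TGANTCA (AP-1), TATAAA and CCAAT, and runs of capitals may join overlapping matches.
Ccl20, chr1:83116516-83116765: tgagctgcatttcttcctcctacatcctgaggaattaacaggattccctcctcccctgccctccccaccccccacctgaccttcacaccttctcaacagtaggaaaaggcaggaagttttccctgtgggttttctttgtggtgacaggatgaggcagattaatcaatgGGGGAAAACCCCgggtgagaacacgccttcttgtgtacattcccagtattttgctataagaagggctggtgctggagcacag
Ccl25, start 1, chr8:4324960-4325209: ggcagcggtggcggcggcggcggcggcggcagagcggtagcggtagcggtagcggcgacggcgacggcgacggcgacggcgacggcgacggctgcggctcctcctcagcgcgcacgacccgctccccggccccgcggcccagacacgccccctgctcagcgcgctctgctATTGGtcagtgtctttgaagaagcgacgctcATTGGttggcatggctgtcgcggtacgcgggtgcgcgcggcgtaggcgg
Ccl25, start 2, chr8:4349338-4349587: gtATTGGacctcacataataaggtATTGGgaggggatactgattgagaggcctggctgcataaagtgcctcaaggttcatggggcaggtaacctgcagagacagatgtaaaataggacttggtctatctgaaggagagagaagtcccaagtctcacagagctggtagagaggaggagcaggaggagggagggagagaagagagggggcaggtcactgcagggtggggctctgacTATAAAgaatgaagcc
Ccl9, chr11:83578637-83578886: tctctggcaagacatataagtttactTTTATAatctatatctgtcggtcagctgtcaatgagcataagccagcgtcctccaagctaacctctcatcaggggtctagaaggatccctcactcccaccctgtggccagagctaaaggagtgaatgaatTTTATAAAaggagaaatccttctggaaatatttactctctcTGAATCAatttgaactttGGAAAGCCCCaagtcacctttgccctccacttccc

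The Ccl20 window held 3 overlapping matches to the loose kappaB motif, which begin 82, 81 and 80 bases upstream of the start site and together read GGGGAAAACCCC. No other motif was matched. Of 32851 windows of the same length, 45.8% held the loose kappaB motif, 6.75% TGANTCA, 12.4% TATAAA and 33.8% CCAAT, so that a match to the first is common. Neither Ccl25 window matched the kappaB motif or TGANTCA. The window at start 1 of Ccl25 held 2 matches to CCAAT and 74.8% G and C, and that at start 2 held 2 matches to CCAAT and 1 to TATAAA. The start 1 window lay wholly within the oppositely transcribed Elavl1 locus (4285382 to 4325413), and the start 2 window lay inside the Ccl25 locus. The Ccl9 window held 1 match to the kappaB motif, beginning 35 bases upstream, 1 to TGANTCA, beginning 53 bases upstream, and 3 to TATAAA. Ccl9 thus had matches to both inducible-site motifs in its window and PMA log2 ratios of -0.07 and -0.30. Both ratios were under the minimum FPKM, with intervals of -0.59 to 0.45 and -1.15 to 0.58. The window also lay inside the Ccl9 locus, which ran on upstream to 83582311, so it does not precede the whole locus. Of the windows not shown, that of Ccl8 matched TATAAA and that of Ccl28 matched the kappaB motif. These matches are letters in a window, not binding sites.

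The monocyte chemoattractant genes lay near each other on chromosome 11 in GRCm38, with Ccl2 at 82035571 to 82037453, Ccl7 at 82045712 to 82047525 and Ccl8 at 82115185 to 82116799, all on the plus strand, and with Ccl11 and Ccl12 between Ccl7 and Ccl8. The FPKM of Ccl2, which attracts monocytes through Ccr2, was 13.5 with DMSO and 91.1 with PMA in 427 cells, 0.496 and 7.17 in the libraries labelled SP2bKD, 4.26 in GFP cells and 9.30 in GFP plus EICD cells. Ccl2 was therefore highest in 427 cells with PMA, where it exceeded 95.4% of the loci with a symbol, and lowest in the DMSO library labelled SP2bKD, which held an estimated 14.2 fragments of it against 425 in 427 cells. With PMA its FPKM was 6.75-fold higher in 427 cells (log2 ratio 2.75, interval 2.61 to 2.90) and 14.5-fold higher in the libraries labelled SP2bKD (3.83, interval 3.10 to 4.77, and 2.45 with 1 added). Between the lines, the FPKM labelled SP2bKD was 27.2-fold lower with DMSO (log2 ratio -4.74, interval -5.67 to -4.02, but -3.64 when scaled to the same FPKM sum and -3.28 with 1 added), a place of 24 from the lowest among 10706 loci. With PMA it was 12.7-fold lower (-3.67, interval -3.86 to -3.48, but -2.41 when scaled to the same FPKM sum). Ccl2 was 8.59-fold higher in GFP cells than in untransfected cells (3.08, interval 2.32 to 4.04, and 1.81 with 1 added) and a further 2.18-fold higher with EICD (1.12, interval 0.81 to 1.44), a ratio of 0.97 with 1 added and 0.93 when scaled to the same FPKM sum, where it is not called. The FPKM of the GFP plus EICD library was still below that of 427 cells with DMSO. Gm17268, annotated on the strand opposite to Ccl2 over its whole length, was listed at 0 in all libraries, and the kit named in the labels does not mark strand.

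Ccl7, a ligand of monocyte receptors that include Ccr2, followed a similar order at a much lower level. Its FPKM was 1.05 with DMSO and 2.15 with PMA in 427 cells, 0 and 0.334 in the libraries labelled SP2bKD, 0.584 in GFP cells and 1.37 in GFP plus EICD cells. The 427 and EICD libraries were the 3 above 1, and the DMSO library labelled SP2bKD was listed at 0, against an estimated 24.2 fragments in 427 cells with DMSO. PMA in 427 cells went with a 2.04-fold higher FPKM (log2 ratio 1.02, interval 0.31 to 1.80), which is at the edge of the 2-fold rule and under it with 1 added (0.62) or when scaled to the same FPKM sum (0.71). With PMA the library labelled SP2bKD was 6.43-fold lower than 427 cells (-2.65, interval -4.00 to -1.62, but -1.24 with 1 added and -1.29 when scaled to the same FPKM sum), and EICD went with a 2.34-fold higher value than GFP alone (1.21, interval 0.24 to 2.36, and 0.58 and 0.97 under these settings). Across the 6 libraries the log2 levels of Ccl7 and Ccl2 had a Pearson r of 0.918, a description over libraries of which 4 are of the SP2bKD line. Ccl8, a neighbour that in mice acts through Ccr8, was listed at 0 in 3 of the 6 libraries, namely DMSO and PMA labelled SP2bKD and GFP. Its FPKM was 0.120 and 0.130 in 427 cells and 0.495 with GFP plus EICD, the last resting on an estimated 6.68 fragments, so that its level is poorly known.

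The other expressed genes within 1 Mb of this group did not share its difference between the lines, but they lay far from it. Nearer loci that are not CC ligands stayed under the minimum, so that no adjacent gene could be compared. Within 1 Mb of Ccl2 to Ccl8 lay 16 loci that are not CC ligands, of which 7 passed the minimum, all 648 to 948 kb beyond Ccl8. Their log2 ratios of SP2bKD to 427 libraries ran from -0.30 to 0.85 with DMSO and from -0.35 to 0.21 with PMA, and 0 of the 7 differed by more than 2-fold in any of the 6 comparisons. Of all tested loci, 0.524% to 5.69% were called in each direction of a comparison, so that 0 of 7 says little.

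Ccl5, a ligand of Ccr1 that attracts T cells and monocytes, lay on the minus strand of chromosome 11 at 83525778 to 83530518. Its FPKM was 0.504 with DMSO and 7.81 with PMA in 427 cells, 2.45 and 10.9 in the libraries labelled SP2bKD, 1.81 in GFP cells and 0.516 in GFP plus EICD cells. Both PMA libraries were above all others, and 427 cells with DMSO and GFP plus EICD cells were the lowest, with an estimated 9.66 and 9.10 fragments. In 427 cells the PMA value was 15.5-fold higher (log2 ratio 3.93, interval 2.99 to 4.99, and 2.55 with 1 added), and in the libraries labelled SP2bKD it was 4.45-fold higher (2.15, interval 1.67 to 2.65). Unlike Ccl2 and Ccl7, Ccl5 was higher in the DMSO library labelled SP2bKD than in 427 cells, by 4.87-fold (2.26, interval 1.23 to 3.40, and 1.20 with 1 added). With PMA the lines were within 2-fold (0.48, interval 0.18 to 0.79), but not when scaled to the same FPKM sum (1.71). GFP cells were within 2-fold of untransfected cells (-0.43, interval -1.13 to 0.27). With EICD the value was 3.52-fold lower than with GFP (-1.80, interval -3.10 to -0.75), a place of 10 from the lowest among 10687 tested loci, of which 56 were called lower. Ccl5 was the only member called lower with EICD, with FPKM values of 1.81 and 0.516, and the call is lost when 1 is added to both libraries (-0.89).

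Ccl20, the ligand of Ccr6 that draws dendritic cells and subsets of T and B cells to epithelia, was read from chromosome 1 at 83116766 to 83119167 on the plus strand. Its FPKM was 0 with DMSO and 29.8 with PMA in 427 cells, 0.0662 and 17.0 in the libraries labelled SP2bKD, 1.095 in GFP cells and 25.3 in GFP plus EICD cells. In fragments the DMSO libraries held an estimated 0 and 2.45, the PMA libraries 1256 and 736, the GFP library 40.5 and the GFP plus EICD library 945. Ccl20 was thus near or at 0 with DMSO in both lines and above 15 in the PMA and EICD libraries, with GFP cells in between. In the libraries labelled SP2bKD its PMA log2 ratio was 7.80 (interval 6.44 to 11.35, but 4.08 with 1 added), a place of 3 from the highest among 10624 loci, and in 427 cells no fold is given because the DMSO library is listed at 0. With PMA the lines were within 2-fold (-0.81, interval -0.94 to -0.68, and 0.44 when each library is scaled to the same FPKM sum). GFP cells were 16.5-fold higher than untransfected cells with DMSO (3.86, interval 2.37 to 7.42, and 0.97, under 2-fold, with 1 added). GFP plus EICD cells were 23.1-fold higher than GFP cells (4.52, interval 4.09 to 5.04, and 3.65 with 1 added), a place of 9 from the highest among 10687 loci. The step from GFP to GFP plus EICD therefore began from a level that was already above both DMSO libraries.

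Ccl25, which attracts thymocyte progenitors through Ccr9 and is made by thymic epithelium, was the steadiest of the 5 members that reached an FPKM of 1. Its locus ran along chromosome 8 from 4325210 to 4360020 on the plus strand. The FPKM was 12.4 with DMSO and 14.3 with PMA in 427 cells, 10.8 and 10.5 in the libraries labelled SP2bKD, 7.05 in GFP cells and 7.21 in GFP plus EICD cells, each resting on an estimated 469 to 1082 fragments by the longest transcript and 66.6 to 154 by the shortest, so that the intervals below may be too narrow. The 427 libraries were the highest and the transfected ones the lowest, and all 6 comparisons were within 2-fold. The log2 ratio was 0.20 with PMA in 427 cells (interval 0.07 to 0.33, and -0.05 when scaled to the same FPKM sum) and -0.04 in the libraries labelled SP2bKD (interval -0.19 to 0.11, and 0.03 and 0.10 when scaled to the same upper quartile or centred on the median). Between the lines it was -0.20 with DMSO (interval -0.34 to -0.05) and -0.44 with PMA (interval -0.57 to -0.31), and 0.76 and 0.80 when scaled to the same FPKM sum. It was -0.62 between GFP and untransfected cells (interval -0.79 to -0.45) and 0.03 between GFP plus EICD and GFP cells (interval -0.15 to 0.22, and -0.15 and -0.03 when scaled to the same sum or centred on the median). The locus overlapped the oppositely transcribed Elavl1, whose protein binds and stabilizes mRNA, by 204 bases. Elavl1 had an FPKM of 41.5 to 61.8, and without strand its reads in the shared bases cannot be told from those of Ccl25.

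The remaining ligands stayed below an FPKM of 1. Ccl9, a Ccr1 ligand on the minus strand of chromosome 11 at 83572919 to 83582311, had an FPKM of 0.750 with DMSO and 0.715 with PMA in 427 cells, 0.324 and 0.262 in the libraries labelled SP2bKD, 0.0207 in GFP cells and 0.0802 in GFP plus EICD cells. It was lower in the libraries labelled SP2bKD than in 427 cells, with a log2 ratio of -1.19 with DMSO (interval -1.97 to -0.56) and -1.41 with PMA (interval -2.19 to -0.76), ratios that are -0.21 and -0.16 when scaled to the same FPKM sum and -0.40 and -0.44 with 1 added. Lower again was the GFP library, at -3.45 against untransfected cells (interval -6.77 to -1.64, and -0.38 with 1 added), with an estimated 1.62 fragments against 25.4, or 0.215 against 3.37 by the shortest transcript. PMA ratios were -0.07 in 427 cells (interval -0.59 to 0.45, and 0.04 when centred on the median) and -0.30 in the libraries labelled SP2bKD (interval -1.15 to 0.58). By the shortest transcript the untransfected libraries held an estimated 3.18 to 8.57 fragments of Ccl9, so that its intervals may be too narrow. Ccl28, a mucosal epithelial ligand of Ccr10 on chromosome 13 at 119623819 to 119654354 on the plus strand, was listed at 0 in 4 libraries and at 0.0240 and 0.0455 in the DMSO libraries of 427 cells and of cells labelled SP2bKD, which amounts to an estimated 2.58 and 4.45 fragments. Its presence was not detectable at this depth in the other 4.

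The size of the PMA ratio was then compared between the lines. For Ccl2 the log2 ratio in the libraries labelled SP2bKD exceeded that in 427 cells by 1.07, a difference larger than that of 99.0% of 10845 loci, and for Ccl5 it was lower by 1.78, with 0.784% of loci further down. The counting error of these differences was 0.85 and 1.12 to either side. Over all 10845 loci the middle 90% of differences ran from -0.60 to 0.50. Each difference came from a different starting level, since Ccl2 was lower and Ccl5 higher in the DMSO library labelled SP2bKD than in 427 cells. When 1 was added to both libraries, the difference for Ccl2 became -0.22, so that its sign rests on the low DMSO value of 0.496. That for Ccl5 became -0.76, so that its size rests on the low DMSO value of 0.504 in 427 cells. For Ccl25 and Ccl9 the differences were -0.24 and -0.23, inside the range of the middle 90% of loci.

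**Figure D4:**
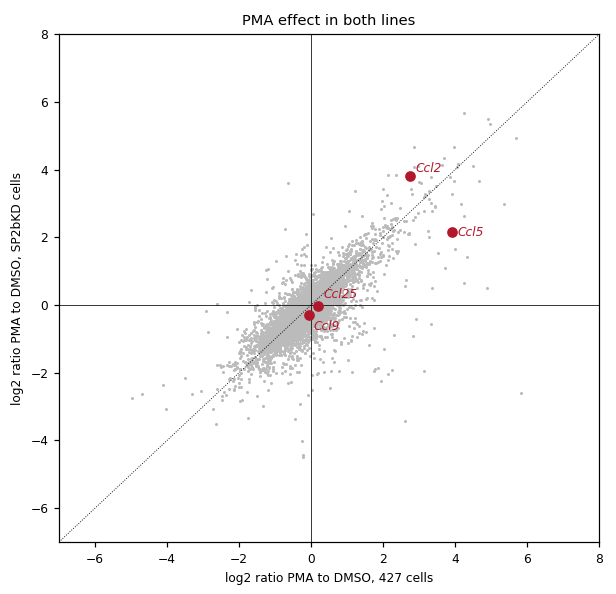
Log2 ratio of PMA to DMSO in 427 cells (x axis) and in the libraries labelled SP2bKD (y axis) for 10791 loci with a symbol (grey), with 4 ligands in red and the line of equal ratios dotted. Ccl2 lies above the line (2.75 and 3.83), Ccl5 below it (3.93 and 2.15), and Ccl25 and Ccl9 lie near 0 on both axes.

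The rest of the CC system was little expressed in these cells. Of 16 other CC ligand genes in the tables, 11 were listed at 0 in all libraries, 4 reached an FPKM of 0.1 in some library and none reached 1. Of 14 CC and atypical receptor genes, 3 were listed at 0 throughout and only Ackr3 reached 1. Ackr3, an atypical scavenging receptor for the CXC chemokine Cxcl12, had an FPKM of 10.9 and 17.1 with DMSO and PMA in 427 cells, 9.37 and 14.6 in the libraries labelled SP2bKD, 21.5 in GFP cells and 18.1 in GFP plus EICD cells. Its log2 ratio of GFP to untransfected cells was 1.20, and the other 5 comparisons were within 2-fold. Ccr6, Ccr9 and Ccr2, the receptors of Ccl20, Ccl25 and Ccl2, had highest FPKM values of 0.0378, 0.0104 and 0 over the 6 libraries.

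Levels of known regulators of CC chemokine mRNA are given beside those of the ligands. Of 12 transcription regulators in the tables, the same 7 were called higher with PMA in both lines: the NF-kappaB subunits Nfkb1, Nfkb2 and Relb, the NF-kappaB inhibitors Nfkbia and Tnfaip3, and the AP-1 subunits Fos and Fosl1, where 3.91% and 3.51% of all tested loci were called higher. The other 5, Rel, Rela, Jun, Irf1 and Cebpb, were not called with PMA. The median log2 ratio over the 12 was 1.24 in 427 cells and 1.11 in the libraries labelled SP2bKD. Relb had log2 ratios of 2.34 and 2.59 and Fosl1 of 3.97 and 4.68. With EICD, 2 of the 12 were called higher, Relb at 1.37 and Nfkbia at 1.21, with a median of 0.72, where 3.55% of all tested loci were called higher. GFP cells had 6 of the 12 higher than untransfected cells (Relb, Nfkbia, Tnfaip3, Jun, Fos and Fosl1), with Fos at an FPKM of 0.823 before and 148.4 in GFP cells, a log2 ratio of 7.48, where 3.56% of all tested loci were called higher. Between the lines with DMSO, Fosl1 (-1.29) and Cebpb (-1.05) were lower in the library labelled SP2bKD, and with PMA Fos was lower (-1.22), where 2.76% and 2.75% of all tested loci were called lower. The median over the 12 was -0.08 with DMSO and -0.01 with PMA. Of 4 genes for mRNA decay or stability, Zc3h12a, an RNase that degrades inflammatory mRNA, was called higher with PMA in both lines (1.91 and 1.52), in GFP cells (1.36) and with EICD (1.04), and Zfp36 and Zfp36l1, which bind AU-rich mRNA, were called higher in GFP cells (1.73 and 1.28). The part of these regulators in the ligand levels was not tested.

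The tested loci around Ccl5 and Ccl9 mostly stayed within 2-fold, whereas Ccl5 was called with PMA, with EICD and between the lines with DMSO. Like most of them, Ccl5 was within 2-fold with GFP and between the lines with PMA. Ccl9 was under the minimum in every comparison, so the loci are set beside Ccl5 only. Within 1 Mb lay 38 loci that are not CC ligands, of which 18 or 19 passed the minimum in a comparison. The 7 tested around Ccl2 to Ccl8 are among them. None of those that passed differed by more than 2-fold with PMA or between the lines. In those comparisons 2.19% to 5.69% of all tested loci were called in each direction. With GFP 2 of 19 did, and with EICD 2 of 19, in both cases Mmp28, a matrix metalloproteinase gene, and 1700020L24Rik, which are named after their values were seen. Over all tested loci 3.56% were called higher and 4.14% lower with GFP, and 3.55% and 0.524% with EICD. Mmp28 had log2 ratios of 1.03 and 1.37 and 1700020L24Rik of 1.21 and 1.16, whereas Ccl5 had -0.43 and -1.80.

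For each ligand that reached an FPKM of 1, the loci of most similar pattern were sought by Pearson r of log2(FPKM + 0.1) over the 6 libraries among 3696 loci that reached an FPKM of 1 and ranged over at least 1 log2 unit. The points are libraries of 2 related lines, so that r describes these 6 values and no more. For Ccl20 they were Mid1ip1 (r = 0.999), Dusp5, a nuclear phosphatase of ERK (0.996), and Kdm6b, a histone demethylase (0.992), and 86 loci exceeded an r of 0.9. A high r takes no account of the size of a change. The FPKM of Mid1ip1 ran from 36.7 to 84.5 and that of Kdm6b from 8.10 to 22.8, against 0 to 29.8 for Ccl20. Dusp5 had an FPKM of 8.12 and 39.1 with DMSO and PMA in 427 cells, 10.2 and 36.7 in the libraries labelled SP2bKD, 16.3 in GFP cells and 34.5 in GFP plus EICD cells. Like Ccl20 it was lowest with DMSO, between these and the rest in GFP cells, and high with PMA and EICD. For Ccl5 they were Klk6, a kallikrein serine protease (0.991), the membrane protein gene Emp1 (0.973) and Tmed5, of the secretory pathway (0.971). Klk6 had an FPKM of 0.192 and 2.31 in 427 cells, 0.767 and 2.25 in the libraries labelled SP2bKD, 0.775 in GFP cells and 0.189 in GFP plus EICD cells, so that it too was lowest in 427 cells with DMSO and with EICD. For Ccl2 they were the planar polarity gene Prickle1 (0.986), the atypical cadherin gene Fat1 (0.981) and a newly assembled locus named Ppp2r3d (0.973), and for Ccl7 Rgs3, a regulator of G protein signalling (0.981), Fat1 (0.964) and Osmr, a receptor subunit for oncostatin M (0.960). Fat1 was thus shared by both monocyte chemoattractant genes, and its FPKM was lowest, at 76.9, in the DMSO library labelled SP2bKD and highest, at 212.9, in 427 cells with PMA. For Ccl25 they were Gchfr (0.994), U90926 (0.992) and the bicarbonate cotransporter gene Slc4a4 (0.990), which were higher in both 427 libraries than in the others and lowest in the transfected ones. Among the ligands, r was 0.568 between Ccl2 and Ccl20, 0.452 between Ccl5 and Ccl20, 0.177 between Ccl2 and Ccl5, and -0.169 between Ccl5 and Ccl7.

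**Figure D5:**
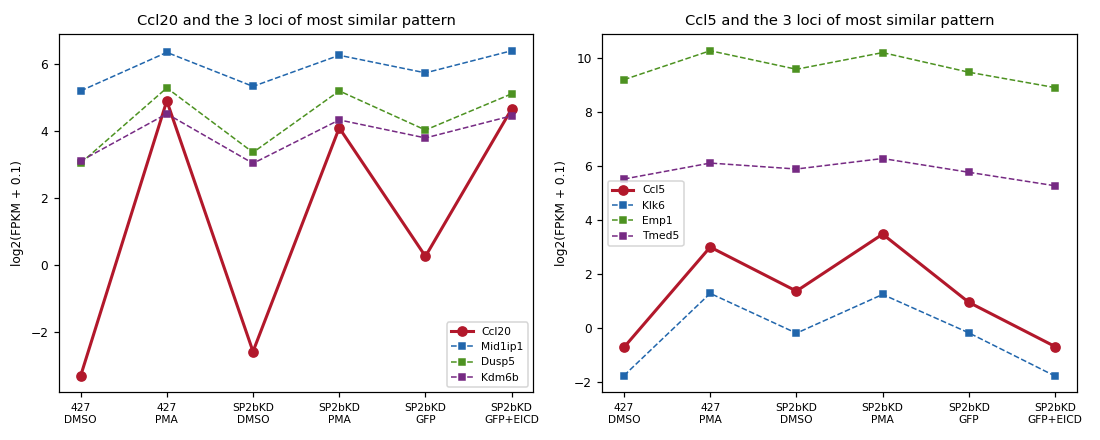
Log2(FPKM + 0.1) of Ccl20 (left) and Ccl5 (right), in red, and of the 3 loci with the highest Pearson r to each, over the 6 libraries in the order of the x axis (lines only join points). The left panel is low with DMSO and high with PMA and with EICD, while in the right panel the EICD library is as low as 427 cells with DMSO, at an FPKM of 0.516 against 0.504 for Ccl5.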

How the data were processed

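Poly(A) RNA of 6 cultures was sequenced as paired ends, and the authors aligned reads with Tophat v2.1.1 to GRCm38 and deposited the FPKM of each locus in each library, made with Cufflinks and Cuffdiff v2.1.1. The submitters' processing notes also name STAR 2.4.0b, without its role. Gene models were partly assembled from the reads, and an FPKM depends on them: 8948 loci were annotated genes alone, 12836 gained assembled isoforms and 3217 were assembled only. Log2 ratios, counts and Clopper-Pearson intervals came from SciPy 1.17.1, pandas 2.3.3 and NumPy 2.4.6 under Python 3.11.15, and matplotlib 3.10.9 drew the plots. Depth was estimated from the step between low FPKM values of single-transcript genes over 2500 bases, with transcript lengths from GENCODE M21, so fragment numbers are estimates. The depth estimate and the 2-fold rule were tried on simulated counts with planted changes and known transcript lengths. Other steps were not tried in this way. Groups came from the labels, and with 1 library per condition no test was run.

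The members and lists were chosen with earlier results of these data known. Named were all members, every listed ligand or receptor at FPKM 1 or more, and the 3 loci most like each member, while regulators and markers were named from lists fixed with the members and neighbours after their values were seen. Motifs were sought in the 250 bases before each start, not in the longer windows planned, so that no bases after that start entered. Some windows still lay within transcribed loci, among them Elavl1 for start 1 of Ccl25, and the gene's own locus for start 2 of Ccl25 and for Ccl9. Alternatives were 0.1 or 1 added, minima of 0.1, 10 or none, 3 scalings, 0.01 added to the EICD library only, and shorter transcripts.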

Additional observations from a re-analysis of the deposited data

Results flagged for a closer look

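The PMA log2 ratio of Ccl25, the thymic epithelial ligand of Ccr9, had opposite signs in the lines, at 0.20 in 427 cells and -0.039 in the libraries labelled SP2bKD. It was picked out because the direction differed between the lines, and the difference was not tested, since each line had 1 library per treatment. Both values were within 2-fold, the interval in the libraries labelled SP2bKD, -0.19 to 0.11, included 0, and the signs were alike under each other scaling, with 0.03 and 0.10 in the libraries labelled SP2bKD when scaled to the same upper quartile or centred on the median.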

How the results depend on the processing

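No paired analysis was possible because each condition had 1 library and the labels give no replicate numbers. Of 171 single-gene log2 ratios under the alternatives, 148 stayed within their counting interval, 12 moved with 1 added to both libraries and 11 when scaled to the same FPKM sum, and 0 called ratios changed sign. Uncalled ratios did so under 1 or more scalings: Ccl25 in every comparison but GFP against untransfected cells (between the lines with PMA from -0.44 to 0.80), Ccl8 and Ccl9 with PMA in 427 cells, and Ccl20 between the lines with PMA (-0.81 to 0.44). Scaling to the same sum shifted log2 ratios with nothing added by 0.97 and 1.25 between the lines with DMSO and PMA. The shifts were -0.25 with PMA in 427 cells, 0.03 with PMA in the libraries labelled SP2bKD and -0.18 with EICD. They arose because the 10 largest loci hold most of that sum. The amount added to FPKM was not scaled while the FPKM became smaller, so ratios at low FPKM moved by other amounts. Ccl20 with PMA in the libraries labelled SP2bKD went from 7.80 to 7.07, and Ccl5 between the lines with DMSO from 2.26 to 2.97. Ccl7 with EICD went from 1.21 to 0.97 and lost its call, a larger move than -0.18. Median centring shifted all log2 ratios by 0.11 and 0.14 with PMA in 427 cells and in the libraries labelled SP2bKD. Elsewhere it shifted them by less than 0.1. Scaled to the same sum, 1 ligand was called higher between the lines with PMA (Ccl5 at 1.71) and 1 with EICD (Ccl20). With 1 added, 1 ligand was called higher with GFP (Ccl20 at 0.97 was not), 1 was higher with EICD (Ccl20 at 3.65) and 0 were lower. With a minimum of 10, the calls were 2 higher with PMA in 427 cells, 0 higher and 1 lower between the lines with DMSO, 1 lower between them with PMA, 0 higher with GFP, and 1 higher and 0 lower with EICD. With a minimum of 0.1, 4 were lower between the lines with DMSO and 4 with PMA, and 1 was lower with GFP. With no minimum, 1 was lower with PMA in each line, 2 higher and 4 lower between the lines with DMSO, 4 lower with PMA, 2 lower with GFP and 5 higher with EICD. The calls added in these counts by lower minima rest on Ccl8, Ccl9, Ccl28 and, for the added higher call between the lines, Ccl20, all at values near 0. Using the shortest transcript lowered the estimated fragments, for Ccl20 with PMA in 427 cells from 1256 to 684, for Ccl25 with DMSO in 427 cells from 908 to 129 and for Ccl9 there from 64.7 to 8.57. The remaining count alternatives were within 1.5 times the count reported, and each symbol had 1 row, so summing rows changed nothing.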

Other observations

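Ccl6, a Ccr1 ligand next to Ccl9 on chromosome 11, was chosen after its values were seen. Its FPKM was 0.166 and 0.199 in 427 cells, 0.0706 and 0.0636 in the DMSO and PMA libraries labelled SP2bKD, 0.0340 in GFP cells and 0.0650 in GFP plus EICD cells. As with Ccl9, the 427 libraries were the highest and GFP cells the lowest, at values too low for a fold to be read.

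The pentamer ATTTA, a motif of AU-rich mRNA, was counted after the levels were seen, in the annotated sequence after the stop codon of each gene's transcript with the longest coding sequence. Ccl20 held 9 in 1050 bases, or 8.57 per kb, a density above that of 98.0% of 21009 genes. Ccl9 held 5 in 2465 bases, Ccl28 5 in 3293, Ccl7 2 in 435 and Ccl2 1 in 275. The densities of Ccl7 and Ccl2 were above those of 90.3% and 84.4% of genes, and those of Ccl9 and Ccl28 above 65.4% and 56.8%. Ccl5, Ccl8 and Ccl25 held 0, but in only 199, 165 and 139 bases, so that a count of 0 says little. The median gene held 1, at a median density of 1.14 per kb.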
